A study of Mus musculus with 29 samples.

Results

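The CIS-SOCS family of cytokine signal inhibitors (Cish and Socs1 to Socs6) and the Pim family of kinases (Pim1, Pim2 and Pim3) were examined in RNA-seq libraries of bone marrow pro-B cells of C57BL/6 mice. The 10 genes were chosen by symbol. Each of them had 1 entry among the 24732 entries of the tables aligned to the mm9 genome, and 1 entry among the 25588 entries of the tables aligned to mm10. All 10 exceeded 1 TPM in every library and entered the fit. TPM is a measure of abundance which is corrected for transcript length and adds up to an equal total in each library, so that levels can be set side by side between genes.

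The mm9 tables held 3 wild-type and 2 Pax5(-/-) libraries, and the mm10 tables held 3 libraries of pro-B cells which the labels describe as Pax5(+/+) Meox2-cre. Pax5 is the transcription factor which commits lymphoid progenitors to the B cell lineage, and the comparison asked which transcripts depend on it in early B cell development. All cells were sorted directly from bone marrow. The sort gates differed between the genotypes: both took B220+ Kit+ cells, but the wild-type gate left out cells with CD2, IgM or IgD, whereas the gate for Pax5-deficient progenitors took Ly6D+ cells. Genotype and gate therefore cannot be told apart. The Meox2-cre control mice were 3 weeks old, carried a Cre recombinase in the ubiquitously active Meox2 locus, and gave pooled cells. The sample list of the study enters these control mice as Pax5(+/-), whereas their labels read Pax5(+/+). The age of the wild-type and Pax5(-/-) mice is not given in the sources used here. The labels do not say which libraries of a group came from separate mice, and p-values measure the spread between these libraries only.

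Cytokines such as IL-7, on which mouse pro-B cells depend, bind receptors whose JAK kinases phosphorylate STAT factors, and these then activate target genes in the nucleus. CIS and some of the SOCS proteins are encoded by genes that such signals switch on, and these close a negative feedback loop. Each protein of the family carries an SH2 domain, which binds phosphorylated tyrosines, and a SOCS box, which recruits a ubiquitin ligase. SOCS1 and SOCS3 can in addition block the catalytic activity of JAK kinases, whereas CIS and SOCS2 are known to bind activated receptors. The Pim serine/threonine kinases are constitutively active once they are made, so that their activity follows their abundance, and they promote survival and cell cycle progression. Pim1 was first found as a retroviral integration site in mouse lymphomas.

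The promoters of Cish, Socs1 and Socs3 are shown because Cish is the classical target of STAT5, because Socs1 and Socs3 differed most between the genotypes, and because 2 of these promoters held the palindrome that STAT dimers are known to bind. Windows from 250 bases before to 50 bases after the annotated start were taken from RefSeq on GRCm38.p6, where 7 of the 10 genes matched. Socs2, Socs5 and Socs6 had no window. Each sequence is written 5′ to 3′ on the strand of the gene, with matches to TTCNNNGAA in capitals. The palindrome reads the same on both strands. The Cish window was chr9:107296409-107296708 on the plus strand, the Socs1 window chr16:10785487-10785786 on the minus strand and the Socs3 window chr11:117969317-117969616 on the minus strand.
Cish: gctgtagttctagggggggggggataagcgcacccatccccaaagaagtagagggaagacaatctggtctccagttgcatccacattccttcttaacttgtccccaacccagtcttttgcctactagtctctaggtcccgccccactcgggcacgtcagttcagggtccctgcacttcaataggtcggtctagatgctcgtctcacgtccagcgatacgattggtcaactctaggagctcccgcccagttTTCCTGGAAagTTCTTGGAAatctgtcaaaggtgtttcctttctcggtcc
Socs1: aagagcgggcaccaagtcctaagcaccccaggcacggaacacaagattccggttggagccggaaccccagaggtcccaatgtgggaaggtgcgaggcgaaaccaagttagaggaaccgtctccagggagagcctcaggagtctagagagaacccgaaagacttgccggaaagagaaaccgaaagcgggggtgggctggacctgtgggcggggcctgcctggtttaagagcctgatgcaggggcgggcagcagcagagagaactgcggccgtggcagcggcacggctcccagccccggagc
Socs3: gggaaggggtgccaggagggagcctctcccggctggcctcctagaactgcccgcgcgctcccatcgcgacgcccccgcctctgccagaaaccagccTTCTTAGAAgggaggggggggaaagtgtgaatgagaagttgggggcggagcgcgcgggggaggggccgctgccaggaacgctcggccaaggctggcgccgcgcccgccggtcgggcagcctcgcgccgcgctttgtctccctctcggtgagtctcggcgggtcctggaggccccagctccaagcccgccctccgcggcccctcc

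Cish held 2 matches, TTCCTGGAA and TTCTTGGAA, whose first bases lay 0 and 11 bases after the start. Socs3 held TTCTTAGAA, whose first base lay at position -154 from the start. The windows of Socs1, Socs4, Pim1, Pim2 and Pim3 held no match, including both windows of Pim1. Of all 32851 RefSeq windows of this length, 8.30% held TTCNNNGAA. The palindrome with 1 more base in its spacer was in 6.95% of all windows and in 0 of the 8 windows of these genes. These matches are letters in a window and not measured binding.

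The libraries matched their genotype labels at Pax5, which was measured at 342, 386 and 391 TPM in wild-type and at 43.0 and 39.1 TPM in Pax5(-/-) cells. These values cover the whole gene, and the extent of the deletion is not given in the sources used here. Ly6d, which encodes a protein used in the sort, rose by 3.60 on the log2 scale. Pearson's r of log2(TPM + 0.5) across genes was between 0.991 and 0.996 within a group and between 0.968 and 0.974 between the genotypes, and no 2 libraries held identical values. The number of reads per library is unknown. From the steps between low values, the length-scaled read totals were estimated at 0.855 and 1.54 times that of the first wild-type library for the Pax5(-/-) libraries, and at 1.02 and 1.03 times for the other wild-type libraries.

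In wild-type pro-B cells, Pim1 was by far the most abundant of the 10 transcripts, and the means of the other 9 lay between 7.20 and 33.6 TPM. Pim1 was expressed at 273 ± 13.6 TPM (SD, n = 3), 8.11 times the level of Pim3, the next gene. Pim3 at 33.6 ± 4.95 TPM and Socs2 at 31.5 ± 5.56 TPM followed, and their libraries overlapped. Pim2 (23.7 TPM), Cish (23.1 TPM), Socs4 (23.0 TPM), Socs6 (19.6 TPM) and Socs3 (15.8 TPM) formed a run in which each gene overlapped its neighbour. Socs5 at 7.51 TPM and Socs1 at 7.20 TPM were the lowest and also overlapped each other. Pim1 ranked above 94.3% of the 12066 genes tested, Cish stood near the middle at 50.0%, and Socs1 ranked above 27.2%.

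The spread between libraries differed among the genes. The coefficient of variation among the 3 wild-type libraries was 5.00% for Pim1 and 6.55% for Socs6, but 32.6% for Socs1, 29.7% for Cish and 24.8% for Socs3. In the Pax5(-/-) pair, Cish again varied by 29.2%, whereas Socs1 varied by 0.710%. A pair of libraries gives only a rough measure of spread. Because the depth is unknown, the counting noise of low transcripts such as Socs1 was not separated from other spread.

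**Figure D1:**
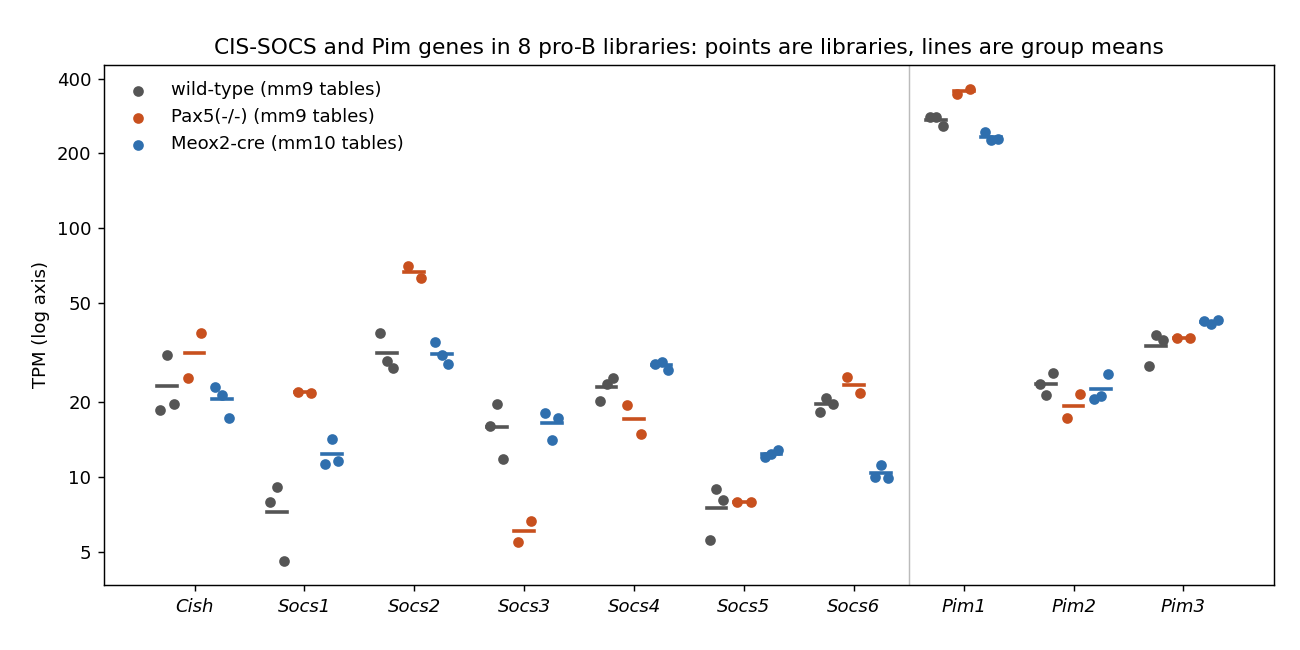
TPM (log axis) of the 10 genes in every library, with points for libraries and horizontal lines for the means of 3 wild-type, 2 Pax5(-/-) and 3 Meox2-cre libraries. The Pax5(-/-) points of Socs1, Socs2, Socs6 and Pim1 lie above all wild-type points, and those of Socs3 and Socs4 lie below. The Meox2-cre values were made on another genome build with another aligner.

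In the absence of Pax5, Socs1, Socs2 and Pim1 rose and Socs3 fell, whereas the other 6 genes did not pass the test. The test was limma on log2(TPM + 0.5) over 12066 genes with Benjamini-Hochberg adjustment and a threshold of 0.05, and fold changes from it are on that scale. Across all genes tested, 15.6% passed as higher, 21.5% as lower and 37.1% in either direction. Passing the test was thus about as frequent among the 10 genes, at 40%, as among all genes. The median log2 fold change of the 10 genes was 0.19, beside -0.12 for all genes tested, and 7 of the 10 estimates were above 0. Rescaling the libraries by median ratios moved the median of all genes to -0.01, so that changes are also given relative to the median.

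Socs1, which encodes an inhibitor of JAK kinases and of interferon gamma signalling in particular, showed the largest change. It was measured at 7.94, 9.09 and 4.57 TPM in wild-type and at 22.0 and 21.8 TPM in Pax5(-/-) libraries. Both Pax5(-/-) values were more than double any wild-type value. The log2 fold change was 1.59 (SE 0.28, 95% interval 0.95 to 2.24, adjusted p = 0.0040, limma), and 1.71 relative to the median of all genes. A rise of at least this size was found for 3.85% of all genes tested. By the thresholds of the study (adjusted p below 0.05, more than 3-fold, a mean above 5 TPM in a genotype, no immunoglobulin or T cell receptor gene), Socs1 was the 1 gene of the 10 that was called, as higher, and 0 were called as lower. Of the 9765 genes that could be called, 3.35% were called as higher and 3.89% as lower. Socs1 lay just inside the threshold with a fitted change of 3.01-fold, and Socs3 was the nearest gene outside it, at 2.45-fold lower. The call of Socs1 was lost at a pseudocount of 1, without the third wild-type library, which held its lowest value, and without either Pax5(-/-) library.

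Socs2, which encodes a feedback inhibitor best known for restraining growth hormone signalling, gave the smallest adjusted p of the 10. Its levels were 37.8, 29.2 and 27.4 TPM in wild-type and 70.8 and 62.9 TPM in Pax5(-/-) libraries, with no overlap. The log2 fold change was 1.09 (SE 0.16, 95% interval 0.71 to 1.46, adjusted p = 0.0020, limma). With 66.8 ± 5.57 TPM (SD, n = 2), Socs2 moved above Pim3 to become the second most abundant of the 10 transcripts. In the alternative analyses that kept every library, Socs2 stayed past the threshold in 10 of 10, as did Socs1 and Socs3. The ratio of mean TPM, 1 of these 10, kept the p-values of the main fit and could not fail. Without the first or the second Pax5(-/-) library, the log2 fold change of Socs2 was 1.00 and 1.17.

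Socs3, which encodes the inhibitor that acts on receptors signalling through gp130 and on the G-CSF receptor, changed in the opposite direction. It was measured at 15.9, 19.6 and 11.8 TPM in wild-type and at 5.49 and 6.62 TPM in Pax5(-/-) libraries. The lowest wild-type library was above both Pax5(-/-) libraries. The log2 fold change was -1.29 (SE 0.24, 95% interval -1.84 to -0.74, adjusted p = 0.0050, limma), and -1.17 relative to the median. A fall of at least this size was found for 7.28% of all genes tested. Without either of the Pax5(-/-) libraries, the adjusted p rose to 0.082 and 0.062 for Socs3 and to 0.067 and 0.076 for Socs1.

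Within each library, the ratio of Socs1 to Socs3 does not depend on how the library was scaled. It was 0.498, 0.463 and 0.387 in wild-type and 4.01 and 3.29 in Pax5(-/-) libraries. Socs3 was therefore the more abundant of the pair in every wild-type library and the less abundant in both Pax5(-/-) libraries. The ratio of Socs2 to Socs3 was 2.37, 1.49 and 2.32 in wild-type and 12.9 and 9.50 in Pax5(-/-) libraries. These ratios were chosen after the values were seen and are given as a description.

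Levels of other transcripts are given beside those of Socs3. The Fos transcript was measured at 21.7 TPM in the first wild-type and 32.1 TPM in the second Pax5(-/-) library, and between 1.56 and 4.91 TPM in the others. Egr1, of the same list of immediate early genes, was measured at 16.2, 24.4 and 20.4 TPM in wild-type and at 4.34 and 3.92 TPM in Pax5(-/-) libraries. The summed level of 10 myeloid markers was 52.7, 270 and 205 TPM in wild-type and 72.1 and 106 TPM in Pax5(-/-) libraries. Of the 9 myeloid markers tested, Ctsg rose and Elane and Itgam fell, and none of the 10 was at 0 in every library. The myeloid sums of the genotypes overlapped. The part of myeloid cells and of immediate early genes in the change of Socs3 was not tested.

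Pim1 rose by a small but tightly measured amount. Its levels were 280, 281 and 257 TPM in wild-type and 346 and 364 TPM in Pax5(-/-) libraries, without overlap. The log2 fold change was 0.38 (SE 0.09, 95% interval 0.16 to 0.60, adjusted p = 0.017, limma), and 20.7% of all genes tested rose by at least as much. The adjusted p was 0.058 without an intensity trend in the variance model, and 0.089 and 0.146 without the first or the second Pax5(-/-) library. The exons of Pim1 share 468 bases with the opposite-strand gene Gm16912 in the mm9 annotation of GENCODE, and reads were counted without regard to strand, so that reads of the 2 genes cannot be told apart there.

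**Figure D2:**
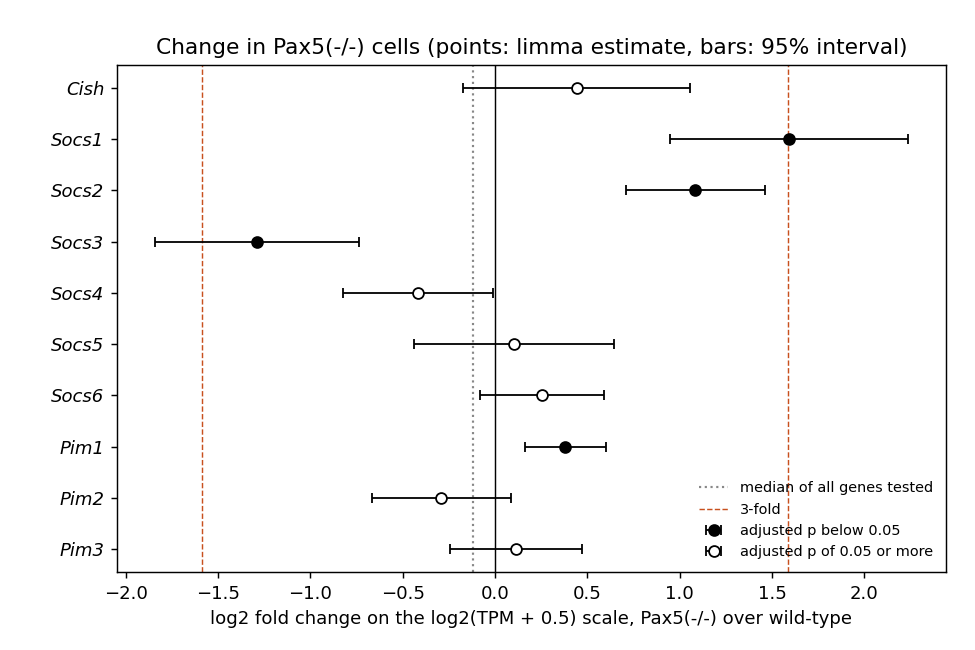
Log2 fold change of each gene in Pax5(-/-) over wild-type libraries on the log2(TPM + 0.5) scale, with 95% intervals from limma. Filled points have an adjusted p below 0.05, dashed lines mark 3-fold and the dotted line marks the median of all genes tested at -0.12. Socs1, Socs2 and Pim1 lie to the right of 0 and Socs3 to the left.

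The remaining 6 genes did not pass the test. Cish, the STAT5 target that encodes CIS, was measured at 18.6, 31.0 and 19.7 TPM in wild-type and at 24.9 and 37.9 TPM in Pax5(-/-) libraries. These ranges overlapped, and the log2 fold change of 0.44 had a 95% interval of -0.17 to 1.06 (adjusted p = 0.22, limma). Its exons share 740 bases with the opposite-strand genes Gm17040 and Gm17041, where unstranded counts cannot separate them.

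Socs4 and Socs5 form the pair of SOCS proteins with a long amino-terminal region that has been linked to the EGF receptor. Socs4 was measured at 20.1, 23.7 and 25.1 TPM in wild-type and at 19.4 and 14.9 TPM in Pax5(-/-) libraries. The groups did not overlap, with a log2 fold change of -0.42 and an adjusted p of 0.098 (limma). Socs5 was measured at 5.56, 8.90 and 8.08 TPM in wild-type and at 7.95 TPM in both Pax5(-/-) libraries, which lay inside the wild-type range. Its log2 fold change was 0.10 with a 95% interval of -0.44 to 0.64. Socs6, a relative linked to insulin receptor and Kit signalling, was measured at 18.2, 20.8 and 19.7 TPM in wild-type and at 25.2 and 21.8 TPM in Pax5(-/-) libraries. The Pax5(-/-) values of Socs6 were higher than each wild-type value, but the log2 fold change of 0.26 (95% interval -0.08 to 0.59) did not pass the test (adjusted p = 0.20, limma).

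The other Pim kinases showed smaller differences. Pim2, which overlaps in function with Pim1 in lymphocytes, was measured at 23.7, 21.3 and 26.1 TPM in wild-type and at 17.2 and 21.5 TPM in Pax5(-/-) libraries. The ranges overlapped (log2 fold change -0.29, 95% interval -0.67 to 0.09, adjusted p = 0.20, limma). Pim3 was measured at 28.0, 37.2 and 35.6 TPM in wild-type and at 36.1 TPM in both Pax5(-/-) libraries, within the wild-type range. Its log2 fold change was 0.11 with a 95% interval of -0.24 to 0.47. Over all 10 genes, 6 had libraries that did not overlap between the genotypes, 4 of them higher and 2 lower, compared with 63.4% of all genes tested in either direction, 26.1% higher and 37.4% lower.

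The 4 genes past the threshold lie on different chromosomes. In mm9 coordinates from GENCODE, Socs1 spans chr16:10783901-10785629 on the minus strand, Socs2 spans chr10:94847996-94879814 on the minus strand, Socs3 spans chr11:117827393-117831361 on the minus strand and Pim1 spans chr17:29627757-29632390 on the plus strand. No annotated gene overlaps the exons of Socs1, Socs2 or Socs3.

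The composition of the CIS-SOCS family differed between the genotypes. The summed level of the 7 genes was 128 ± 13.3 TPM (SD, n = 3) in wild-type and 175 ± 1.39 TPM (SD, n = 2) in Pax5(-/-) libraries, a difference of 0.46 on the log2 scale. Socs2 made up 24.8% of this sum in wild-type and 38.2% in Pax5(-/-) libraries, and Socs1 made up 5.57% and 12.5%. The share of Socs3 was 12.3% in wild-type and 3.47% in Pax5(-/-) libraries, and that of Socs4 was 18.1% and 9.79%. In each of these 4 genes, and in Socs6 with 15.4% and 13.4%, the shares did not overlap between the genotypes. Shares have no counterpart over all genes, but the levels of 63.4% of all genes tested did not overlap. A larger share of 1 gene also lowers the shares of the others. Socs6 had a mean of 19.6 TPM in wild-type and 23.5 TPM in Pax5(-/-) libraries, although its share was lower in the latter. The share of Cish was 17.9% and 18.0%, with overlapping libraries. With 3 against 2 libraries, an exact permutation test cannot go below 0.2 in the two-sided form that doubles the smaller tail. These shares are therefore given as values without a test.

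The Pim family was made up mainly of Pim1 in every library. The summed level of the 3 kinases was 330 ± 10.6 TPM (SD, n = 3) in wild-type and 410 ± 16.0 TPM (SD, n = 2) in Pax5(-/-) libraries, a difference of 0.32 on the log2 scale. Pim1 accounted for 82.6% of the sum in wild-type and 86.5% in Pax5(-/-) libraries. The share of Pim2 was 7.20% in wild-type and 4.70% in Pax5(-/-) libraries, and neither share overlapped between the genotypes. The share of Pim3 was 10.2% and 8.80%, with overlap.

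**Figure D3:**
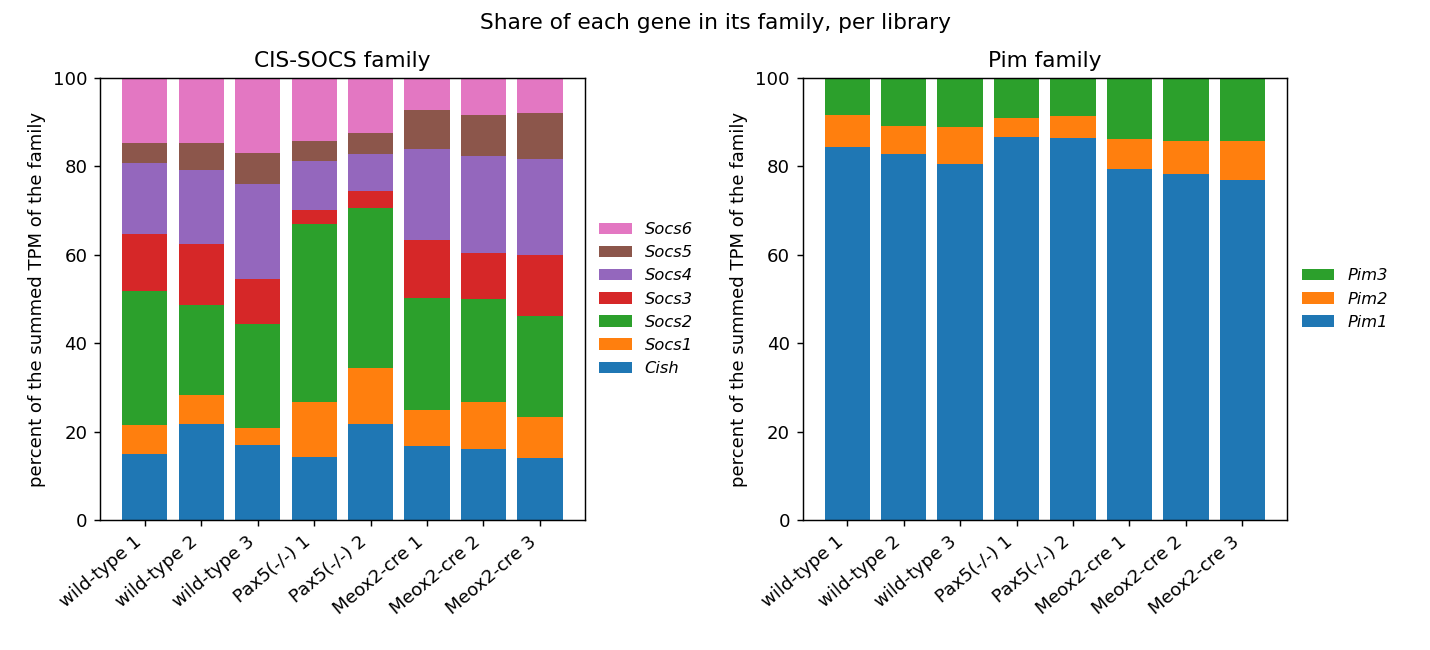
Percent of the summed TPM of the CIS-SOCS family (left) and of the Pim family (right) contributed by each gene, with 1 bar for each library. Socs2 and Socs1 take larger and Socs3 and Socs4 smaller shares in the 2 Pax5(-/-) bars than in the 3 wild-type bars, and Pim1 takes most of the Pim sum in all 8 bars.

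In the Meox2-cre pro-B cells, Pim1 was again the most abundant transcript, at 243, 226 and 229 TPM. Pim3 at 42.1 ± 0.782 TPM and Socs2 at 31.3 ± 3.23 TPM (SD, n = 3) followed, in the same order as in the wild-type libraries. Socs1 was measured at 11.3, 14.2 and 11.6 TPM, between the values of the wild-type and of the Pax5(-/-) libraries. Socs3 was measured at 18.1, 14.1 and 17.3 TPM, and the ratio of Socs1 to Socs3 was 0.626, 1.01 and 0.671. Socs6 was the lowest of the 10 genes here, at 10.02, 11.2 and 9.85 TPM, and lay below the 18.2 to 20.8 TPM of the wild-type libraries. Socs5 at 12.4 ± 0.417 TPM lay above its wild-type range. Spearman's rho between the mean levels of the 10 genes was 0.89 for wild-type and Meox2-cre and 0.76 for wild-type and Pax5(-/-) libraries, given as a description over genes. The Meox2-cre libraries were aligned with other software to another build and counted on another annotation, and no test was made against them. Their summed level of the 10 myeloid markers was 631, 1251 and 460 TPM, above that of every wild-type library, and its part in these levels was not tested.

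The other genes of the pathway were counted in 8 lists with 94 genes, of which 86 were tested. Of these, 16 rose (18.6%) and 22 fell (25.6%), beside the 15.6% and 21.5% of all genes tested. Among the IL-7 and TSLP receptor chains and the JAK kinases, 2 of 7 rose and 1 fell. Il2rg, the common gamma chain, rose by 0.68 and Jak3, the kinase bound to it, rose by 0.52 on the log2 scale, whereas Jak2 fell by 0.84. Il7r, the IL-7 receptor alpha chain, had a log2 fold change of 0.48 and an adjusted p of 0.11 (limma). Among the 7 STAT factors, 0 rose and 2 fell, namely Stat3 with -0.47 and Stat5b with -0.33. The adjusted p of Stat5b was 0.049.

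Of 18 tested receptors of other cytokines, 10 rose and 2 fell. The median log2 fold change of this list was 0.62. Ifngr1, the ligand-binding chain of the interferon gamma receptor, was measured at 83.5, 80.5 and 89.8 TPM in wild-type and at 242 and 257 TPM in Pax5(-/-) libraries, a log2 fold change of 1.55. Il6st, which encodes gp130, rose by 1.41, and Epor, the erythropoietin receptor, fell by 2.08. Ifngr1 and Socs1 were both higher, whereas Il6st was higher and Socs3 lower in the same libraries. Ifngr2 and Il6ra did not pass, with log2 fold changes of 0.07 and -0.08. A relation of receptor levels to those of Socs1 and Socs3 was not tested. The summed level of 6 erythroid and megakaryocyte markers was 25.2 to 71.1 TPM in wild-type and 6.47 to 14.4 TPM in Pax5(-/-) libraries, with Hbb-b1 at 0 throughout. The part of these cells in the fall of Epor was not tested.

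The remaining inhibitors and the ubiquitin ligase genes mostly did not pass the test. Of 14 other JAK-STAT inhibitors, 0 rose and 3 fell, namely Pias3 (-0.79), Sh2b3 (-0.53) and Pias1 (-0.46 on the log2 scale). Sh2b3 encodes the adaptor LNK, which restrains JAK2, and Pias1 and Pias3 encode SUMO ligases that bind STAT factors. Of 8 genes for cullin ubiquitin ligases and their modification by NEDD8, 0 rose and 2 fell, namely Ube2f (-0.61) and Rbx1 (-0.34). Ube2f encodes an enzyme that conjugates NEDD8 and not a ligase subunit. Elob, Eloc, Cul5 and Rnf7, which encode the ligase recruited by the SOCS box, did not pass. The median log2 fold changes of these lists were -0.25 and -0.28, beside -0.12 for all genes.

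Genes known to respond to STAT5 moved in both directions, with 3 of 10 higher and 4 lower. Bcl2l1, which encodes the survival factor Bcl-xL, fell from 147, 152 and 126 TPM to 26.0 and 23.9 TPM (log2 fold change -2.48). Ccnd2, which encodes cyclin D2, rose by 1.76 and Il2ra, the IL-2 receptor alpha chain, rose by 1.71, whereas Ccnd3, which encodes cyclin D3, fell by 1.69. Among 10 known Pim substrates, 1 rose and 3 fell. The cell cycle inhibitors Cdkn1a and Cdkn1b, whose products are phosphorylated by Pim kinases, had log2 fold changes of -2.23 and -1.21, the chemokine receptor gene Cxcr4 fell by 0.81 and Akt1s1 rose by 0.56 on the log2 scale. These are transcript levels, and no kinase activity was measured.

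Among 12 tested immediate early and heat shock genes, which respond to the handling of cells, 0 rose and 5 fell. Egr1 fell by 2.15, Hspa1b by 1.46, Nr4a1 by 0.59 and Dusp1 by 0.50 on the log2 scale.

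**Figure D4:**
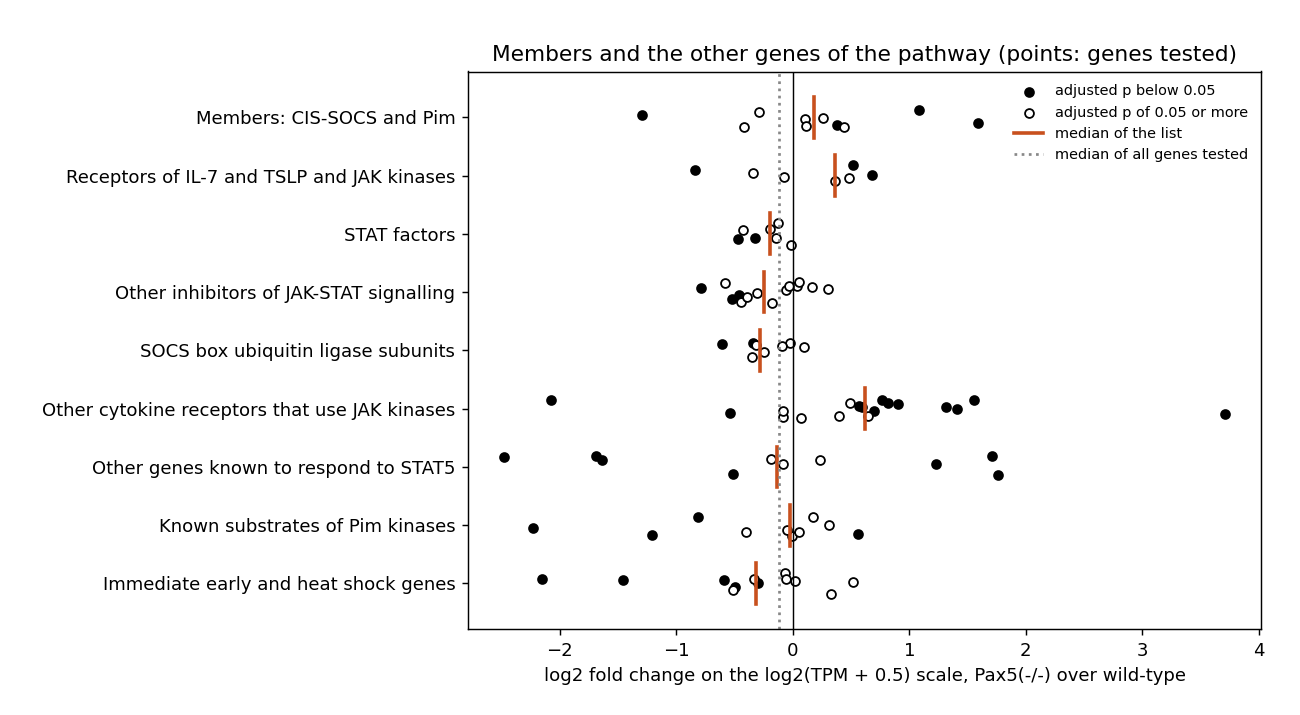
Log2 fold change (Pax5(-/-) over wild-type, log2(TPM + 0.5) scale) of the 10 genes and of the genes of 8 pathway lists, with 1 point for each gene tested, filled where the adjusted p was below 0.05, and an orange line for the median of each list. The list of other cytokine receptors has the highest median, at 0.62, and the dotted line marks the median of all genes at -0.12.

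Among 15 sort and B lineage markers, 1 rose and 10 fell. Markers of other cells were also measured. The sum of 8 T cell markers was 63.8 to 84.2 TPM in wild-type and 203 to 209 TPM in Pax5(-/-) libraries, of which Lck alone held 196 and 198 TPM. Of the 3 T cell markers tested, 2 rose and 1 fell. The sum of 6 NK and innate lymphoid markers was 4.87 to 15.1 TPM and 23.1 to 29.7 TPM, with 2 of 3 higher and 1 lower. The sum of 6 plasmacytoid dendritic cell markers was 85.7 to 125 TPM and 129 to 183 TPM, with 2 of 3 higher. Most of this sum was Bst2, at 83.0 to 123 TPM and 120 to 163 TPM, which overlapped and did not pass (adjusted p = 0.10, limma). The sum of 5 plasma cell markers was 201 to 246 TPM and 651 to 816 TPM, with 1 of 4 higher and 2 lower, and Jchain held 545 and 695 TPM of it in the Pax5(-/-) libraries. Of 5 tested pre-B and mature B markers 1 rose and 3 fell, and of 3 tested stromal markers 0 rose and 1 fell. Cd4, Gzma, Siglech and Jchain entered the test only through their Pax5(-/-) means. Their wild-type means were 0.534, 0.523, 0.600 and 0.495 TPM. Cd2, Ms4a1 and Cxcl12 entered only through their wild-type means. The counts of higher and lower markers are therefore partly set by the filter. Cd3e, Cd3d, Cd3g, Cd8a and Cd28 stayed below the filter in both genotypes. Apart from Hbb-b1, no marker of these lists was at 0 in every mm9 library. The part of such cells in the levels of the 10 genes was not tested, and fewer cells of a type cannot be told apart from less RNA per cell in bulk libraries.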

How the data were processed

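Cells were sorted from bone marrow and polyadenylated RNA was sequenced. The authors aligned the reads of the wild-type and Pax5(-/-) libraries to mm9 with TopHat 1.4.1a, counted them without strand with featureCounts 1.5.0 on a modified refGene annotation, and deposited TPM values per gene. For the Meox2-cre libraries the authors used STAR 2.4.2a and the mm10 refGene annotation and likewise deposited TPM. The deposited TPM values of each library sum to 1000000, so that depth and counting intervals are unknown.

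The genotype contrast was estimated by lmFit and trended eBayes of limma 3.58.1 (R 4.3.3), with log2(TPM + 0.5) as response and no covariate, over the 12066 genes whose mean exceeded 1 TPM in either genotype. P-values were adjusted by Benjamini-Hochberg over these genes. The authors called genes with DESeq2 on read counts, which are not used here. The procedure was also run on simulated data, in which a far smaller part of the genes was changed than passed here. That run is not used as support for the results. The genes and lists were chosen with earlier results of these data known. Named with values were the 10 genes, Pax5, up to 4 genes per pathway list with the largest change past the threshold, and markers where needed. Il7r, Ifngr2, Il6ra, Stat5b's p-value, Fos, and the ratios between genes were added after values were seen. Alternatives were other pseudocounts, filters, variance models, scalings and thresholds, the ratio of mean TPM, and leaving out each library. Python 3.11.15, pandas 2.3.3, scipy 1.17.1 and matplotlib 3.10.9 were used. The ChIP-seq samples are not analysed here. Some genes and markers that these rules would name are not reported here.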

Additional observations from a re-analysis of the deposited data

How the results depend on the processing

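Socs1, Socs2 and Socs3 stayed past the threshold in 10 of 10 alternative analyses that kept every library, and Pim1 in 9. The ratio of mean TPM was 1 of these 10 and kept the p-values of the main fit. All 4 genes kept their direction in 15 of 15 alternatives. Leaving out libraries in turn gave 1 to 3 genes higher and 0 to 1 lower at the adjusted p of 0.05, 0 to 1 called higher at 3-fold, and 6 to 17 pathway genes higher and 6 to 26 lower. The lowest counts came without 1 of the Pax5(-/-) libraries, where the lone library is assumed to vary like the others, and 13 pathway genes were lower without the second wild-type library. A pseudocount of 1 left 0 genes called higher, and a 2-fold threshold gave 2 called higher and 1 lower. Leaving out libraries in turn, the log2 fold change of Socs5 ranged from -0.088 to 0.23 and that of Pim3 from -0.012 to 0.19, both below 0 without the first wild-type library. The difference in the share of Cish ranged from -3.72 to 3.91 percentage points, with -3.72 without the second Pax5(-/-) library and -1.36 and -0.40 without wild-type replicates 1 and 3. The cause was not tested. No paired analysis was possible because replicate numbers here follow accession order and tie no wild-type library to a Pax5(-/-) one. The unknown depth limits how far the low levels of Socs1, Socs3 and Socs5 can be judged.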
